A study of Rattus norvegicus with 13 samples.

Results

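The genes described here encode the contractile apparatus and the energy supply of skeletal muscle, and they were measured in rat thyroid, which lies on the trachea under thin strap muscles. The list held 44 gene names, grouped by their role in muscle: 14 genes of fast fibres, 7 of slow fibres, 2 developmental myosins, 11 sarcomere genes that fibre types share, 3 genes of excitation-contraction coupling and 7 genes of energy metabolism. A probe with the gene's name was on the array for 43 of the 44, and Neb had none. Of the 43, 38 were bright enough to be tested (well above background on 6 or more of the 13 arrays), beside 20721 gene names tested in all. The brightest probe stood for each gene.

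RNA came from the thyroids of male Wistar rats whose mothers had been gavaged during pregnancy, and 1 array was hybridised per sample. The KI-treated group (n = 6) descended from dams that received potassium iodide (KI) at 1 mg/kg for 8 days from gestational day 9, and the control group (n = 7) from dams that received saline. The KI-treated offspring were thus exposed to KI in utero, and no gavage of the offspring themselves is described. Their thyroids and those of the controls were collected 51 days after birth. The litter of each animal is not given in the sources used here, so littermates, which share a mother, may sit within a group, and p-values measure the spread between these samples. Arrays are named below by group and replicate number, as KI 1 to KI 6 and control 1 to control 7.

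Skeletal muscle contracts when calcium released from the sarcoplasmic reticulum binds troponin and frees actin for the myosin heads. Fibres differ in the myosin heavy chain they use: fast fibres carry the IIA, IIX or IIB chains (Myh2, Myh1 and Myh4), slow fibres carry the slow chain (Myh7) with slow troponins and light chains, and immature or regenerating fibres carry embryonic and perinatal chains (Myh3 and Myh8). Thyroid follicle cells are not known for these proteins, and the strap muscles beside the gland express most of them.

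The genes of 5 of these heavy chains lie side by side on rat chromosome 10 in the GRCr8 annotation, in the order Myh3 (52269185 to 52293000), Myh2 (52355739 to 52382235), Myh1 (52384810 to 52408698), Myh4 (52422148 to 52445296) and Myh8 (52462509 to 52492105). The 250 bases before the annotated starts of Myh2 and Myh4 are shown because these neighbours differed across the arrays. Those before Acta1, on chromosome 19, are shown because skeletal actin was far higher on control 5 than elsewhere. Sequences are from RefSeq, 5′ to 3′. Capitals mark matches, on either strand, to an E-box (CANNTG), an M-CAT element (CATTCC), the TATA box (TATAAA), a CArG box or a MEF2 box; no matches overlap in these windows.
Myh2 (chr10:52355489-52355738, plus strand): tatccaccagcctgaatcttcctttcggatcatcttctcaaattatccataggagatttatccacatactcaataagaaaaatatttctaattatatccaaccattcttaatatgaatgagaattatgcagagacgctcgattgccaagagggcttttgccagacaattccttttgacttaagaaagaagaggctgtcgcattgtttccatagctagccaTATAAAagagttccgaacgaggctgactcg
Myh4 (chr10:52421898-52422147, plus strand): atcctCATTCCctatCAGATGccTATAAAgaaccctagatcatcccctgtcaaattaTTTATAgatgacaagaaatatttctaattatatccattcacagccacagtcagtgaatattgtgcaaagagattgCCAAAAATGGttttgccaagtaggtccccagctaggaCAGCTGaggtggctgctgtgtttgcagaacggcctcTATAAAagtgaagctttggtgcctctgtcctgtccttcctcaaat
Acta1 (chr19:68784195-68784444, minus strand): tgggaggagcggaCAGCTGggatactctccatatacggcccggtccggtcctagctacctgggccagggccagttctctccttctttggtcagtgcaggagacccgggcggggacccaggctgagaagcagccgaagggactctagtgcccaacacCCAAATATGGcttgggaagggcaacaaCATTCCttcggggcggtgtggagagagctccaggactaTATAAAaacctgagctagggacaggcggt

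The Myh4 window held 2 E-boxes, 1 M-CAT element, 1 CArG box and 3 TATAAA matches, the Acta1 window 1 of each of these, and the Myh2 window a single TATAAA. Among the members with such a window in the RefSeq table, also 38 but not the same as those tested, an E-box was found for 31 (81.6%, against 65.5% of all 33469 windows), an M-CAT element for 8 (21.1% against 12.1%), a CArG box for 4 (10.5% against 1.5%), a MEF2 box for 5 (13.2% against 0.523%) and TATAAA for 13 (34.2% against 12.9%). The CArG box, the target of serum response factor, was in the windows of Acta1, Ldb3, Myh4 and Myl3. A match describes the letters and shows no binding.

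The probes of the fast and slow forms of troponin C, the calcium sensor of the thin filament, are shown because they cover nearly the same stretch of the related genes and yet reported different patterns. Ungapped alignment placed 59 bases of each against the other, of which 48 (81.4%) were identical and are in capitals. No other pair among the 58 probes of the members reached 70% identity over at least 25 bases.
Tnnc2 probe (fast): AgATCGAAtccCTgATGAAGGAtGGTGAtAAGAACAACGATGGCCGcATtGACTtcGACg
Tnnc1 probe (slow): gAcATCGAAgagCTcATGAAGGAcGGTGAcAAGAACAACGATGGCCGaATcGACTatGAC

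Levels below are on the log2 scale, with the 75th percentile of each array's signals set to 0, and they compare arrays for 1 gene but not genes with each other. Between 34840 and 41050 of the 58717 gene spots of an array were well above background and 0 were saturated. The arrays came from 6 slides read in 3 scan sessions, and 5 slides held both groups. Thyroglobulin (Tg), the thyroid hormone precursor, was between 9.80 and 10.58 on every array, and 10 of 11 thyroid follicle genes were tested, whereas the iodide exporter Slc26a4 was not well above background on any array.

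The muscle genes were among the most variable of the thyroid arrays, and the variation ran through most of the list at once. The standard deviation (SD) over the 13 arrays had a median of 1.29 among the 38 tested members and of 0.32 among all 20673 genes with complete values. It exceeded the 99th percentile of all genes (1.15) for 23 members, and only the brightest Tpm2 probe, at 0.26, fell below the median of all genes. Each array was then given a muscle level, the mean over the 38 members of the deviation from the member's own median. Control 5 was highest at 2.24, followed by KI 2 at 1.04 and KI 3 at 0.60, and KI 1 (-1.15) and KI 4 (-1.85) were lowest. Highest and lowest arrays differed by 4.09 on the log2 scale, by 3.97 over the 27 members that were well above background on every array, and by 3.44 in the deposited log2 values. The other 8 arrays lay between -0.65 and 0.49. In whole tissue, fewer muscle fibres and less RNA per fibre cannot be told apart.

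**Figure D1:**
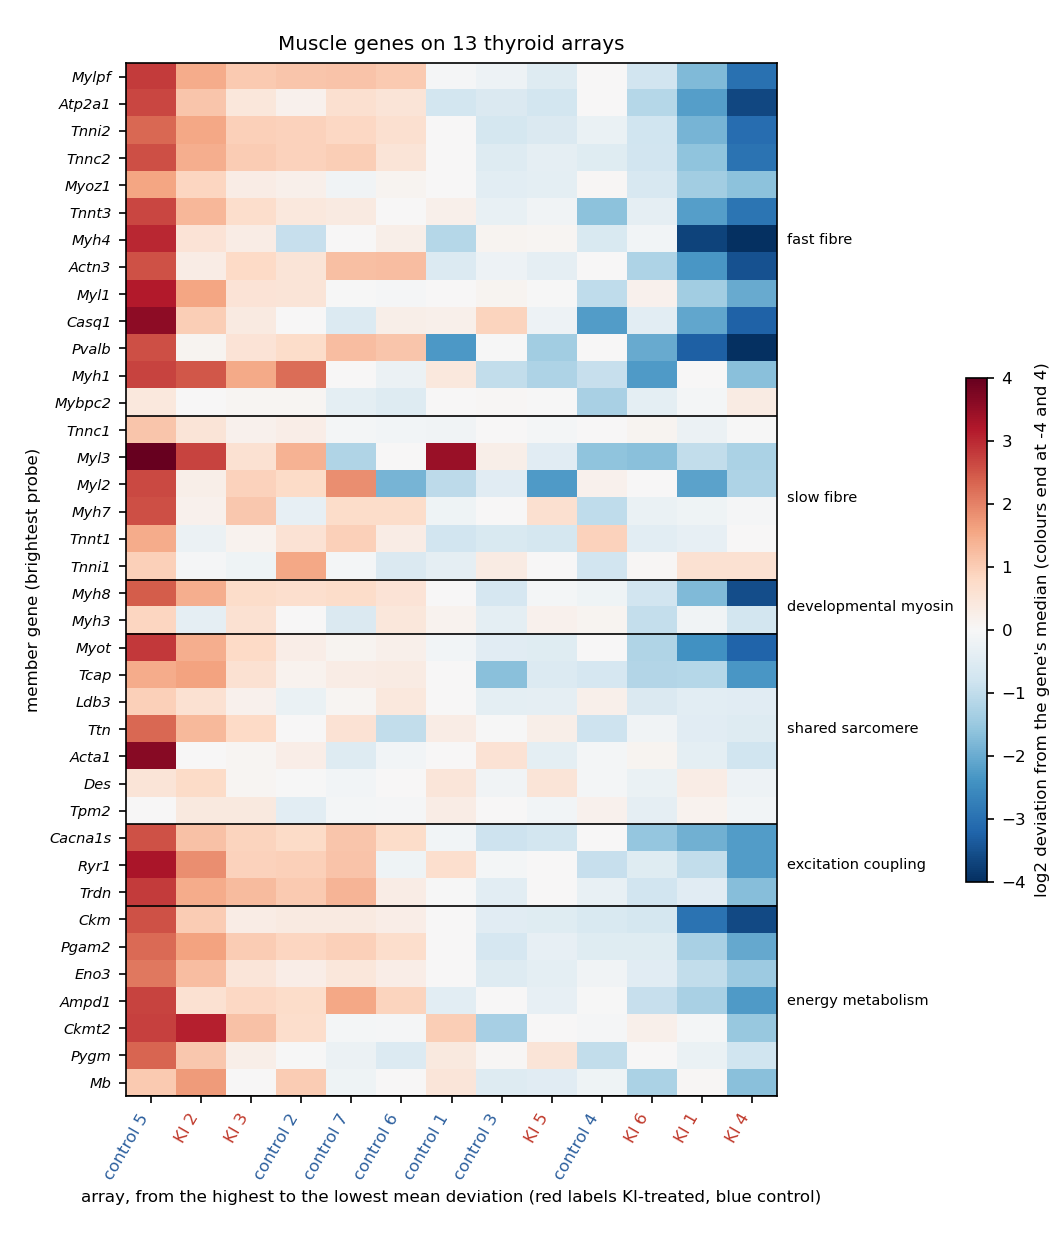
Heat map of the 38 tested muscle genes (vertical axis, grouped by role) on the 13 arrays (horizontal axis, ordered from the highest to the lowest muscle level), coloured by the log2 deviation from each gene's median over the arrays. Control 5 is red for nearly every gene, KI 4 is blue for most fast-fibre, coupling and energy genes and KI 1 for many of them, and Tpm2 and Des are pale throughout.

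The fast-fibre genes moved as a block. Ckm, the muscle creatine kinase that buffers ATP, was used to follow it, because Acta1 stood apart on 1 array only. Across the 13 arrays, Pearson's r with Ckm exceeded 0.8 for 11 of the 13 tested fast-fibre genes, with a median of 0.94, and the median r over all 20672 other genes was 0.04. The fast regulatory light chain Mylpf (r = 0.97), the calcium pump Atp2a1 (0.97), fast troponins I, C and T (Tnni2 0.97, Tnnc2 0.97, Tnnt3 0.96), the Z-disc protein Myoz1 (0.96), the IIB heavy chain Myh4 (0.94) and fast alpha-actinin Actn3 (0.94) followed it closest. The points of these correlations share arrays and scaling, so the values describe these 13 arrays. Mybpc2, fast myosin-binding protein C, did not follow (r = 0.04) and stayed between 0.16 and 1.87. Casq1, the calcium store of the reticulum in fast fibres, followed Ckm (r = 0.89) but was well above background on only 6 arrays.

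Tnni2, the inhibitory subunit of fast troponin, ranged in KI-treated thyroids from -0.14 to 4.45 (median 2.22) and in controls from 2.21 to 5.20 (median 3.55). Atp2a1, which returns calcium to the reticulum of fast fibres, ranged from -0.58 to 4.18 (median 2.14) in KI-treated thyroids and from 2.35 to 5.76 (median 3.25) in controls. In both genes KI 4 and KI 1 were the lowest arrays, control 5 the highest, KI 6 lay just below the control range, and the other 3 KI-treated arrays lay within it. The difference between group means, KI-treated minus control, was -1.17 for Tnni2 (standard error, SE, 0.67, limma adjusted p = 0.436) and -1.42 for Atp2a1 (SE 0.70, limma adjusted p = 0.405). Exact two-sided permutation over all 1716 splits of the arrays gave p = 0.158 and 0.111.

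Fast troponin T (Tnnt3) ranged from -1.90 to 2.38 (median 0.78) in KI-treated thyroids and from -0.59 to 3.72 (median 1.23) in controls. The fast essential light chain Myl1 ranged from -2.65 to 0.96 (median -0.55) and from -1.66 to 2.54 (median -0.63). The groups overlapped in both genes, and for Myl1 the medians were nearly equal although the means differed by -0.57 (SE 0.64, limma adjusted p = 0.645). Tnnt3 differed by -0.85 (SE 0.72, limma adjusted p = 0.551).

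The fast heavy chains did not share one pattern. The IIX chain Myh1 was well above background on all 13 arrays and was high on control 5 (4.65), KI 2 (4.42), control 2 (4.18) and KI 3 (3.44), with the other 9 arrays between -0.34 and 2.35. The IIA chain Myh2 was well above background on only 5 arrays, which were those same 4 (control 5 at -0.03, KI 2 at -2.52, control 2 at -3.16, KI 3 at -3.38) and KI 1 at -3.66. The IIB chain Myh4 was well above background on 11 arrays, where it lay between -1.37 and 2.78, and not on KI 1 (-3.95) or KI 4 (-5.48). Thus KI 1 was well above background for the IIX and IIA chains, at 0.02 from the Myh1 median, while it was not well above background for Myh4 and stood at -2.95 from the Ckm median. Control 2 was likewise 2.25 above the Myh1 median and at -0.91 from the Myh4 median.

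**Figure D2:**
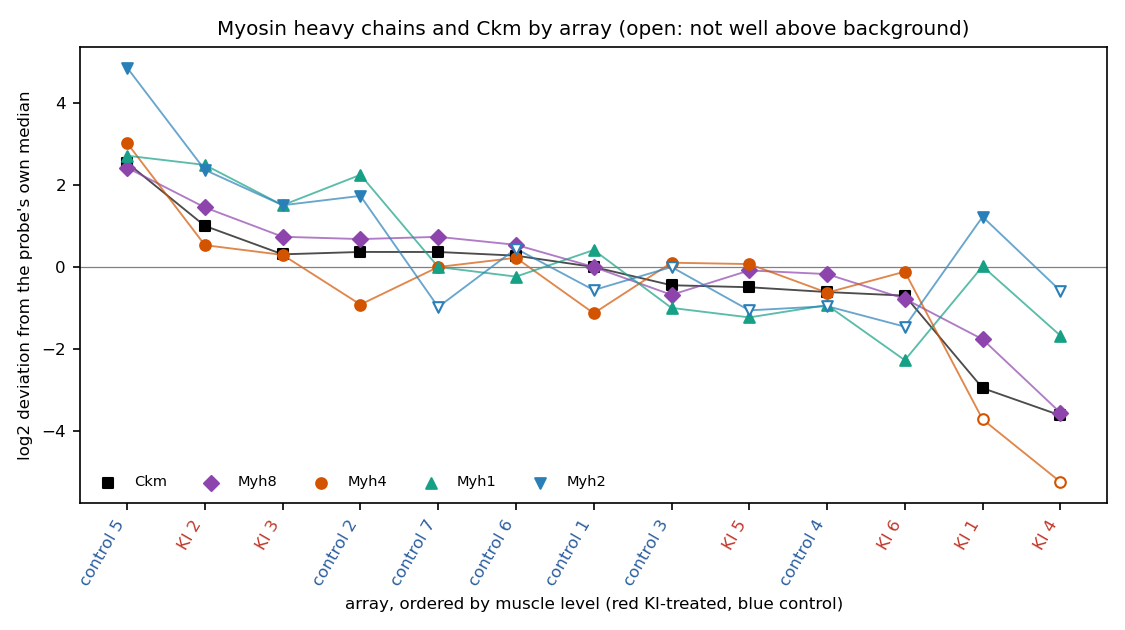
Log2 deviation from each probe's own median (vertical axis) for Ckm and the heavy chains Myh8, Myh4, Myh1 and Myh2 on the 13 arrays (horizontal axis, ordered by muscle level; red labels KI-treated, blue control), with open symbols where the probe was not well above background. Myh8 runs along Ckm, and on KI 1 Myh1 is at 0.02 and Myh2 is a filled symbol, where Myh4 is open at -3.71.

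The pairing of the chains was followed by correlation in a family of 5 pairs, each with 100000 permutations and Benjamini-Hochberg adjustment, and these pairs were chosen after the values were seen. Myh1 and Myh2 rose and fell together (r = 0.86, adjusted permutation p = 0.000175; Spearman rho = 0.86, adjusted permutation p = 0.00102), also without control 5 and KI 2, the arrays farthest from the Myh1 median (r = 0.80, adjusted permutation p = 0.00635, n = 11). Myh1 with Myh4 (r = 0.45, rho = 0.41, adjusted permutation p = 0.143 and 0.163) and Myh2 with Myh4 (r = 0.42, rho = 0.42, adjusted permutation p = 0.143 and 0.163) did not pass. Whether the strength of these relations differed was not tested, and 8 of the 13 Myh2 values were not well above background. Slides held at most 3 arrays and scan sessions at most 5, too few for correlations within them.

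In the group comparison, Myh1 ranged from -0.34 to 4.42 (median 1.33) in KI-treated thyroids and from 0.94 to 4.65 (median 1.93) in controls, with a difference of -0.65 (SE 0.82, limma adjusted p = 0.676). Myh4 ranged from -5.48 to 0.29 (median -0.26) and from -1.37 to 2.78 (median -0.24), with a difference of -1.46 (SE 0.95, limma adjusted p = 0.472). The medians of Myh4 were nearly equal, and the difference of its means came with the 2 KI-treated arrays on which it was not well above background. Exact permutation gave p = 0.488 for Myh1 and p = 0.245 for Myh4. Myh2 was not tested and ranged from -6.34 to -2.52 (median -4.57) in KI-treated thyroids, well above background on 3 arrays, and from -5.86 to -0.03 (median -4.89) in controls, well above background on 2.

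The developmental chains parted. The Myh8 probe, for the perinatal chain, was well above background on all 13 arrays, spanned 0.69 on KI 4 to 6.65 on control 5, and had the highest r with Ckm of the heavy chains (r = 0.97, rho = 0.96, adjusted permutation p = 5e-05 for both; r = 0.94 without KI 4 and control 5, n = 11). It also followed Myh4 (r = 0.91, rho = 0.75, adjusted permutation p = 0.0002 and 0.00787; r = 0.70 without KI 4 and control 5, adjusted permutation p = 0.0343). The embryonic chain Myh3 stayed between -4.89 and -3.08 and was well above background on 11 arrays. Myh8 was between 0.69 and 5.68 (median 3.81) in KI-treated thyroids and between 3.56 and 6.65 (median 4.77) in controls, a difference of -1.17 (SE 0.69, limma adjusted p = 0.446). Myh3 was between -4.89 and -3.33 (median -4.19) and between -4.51 and -3.08 (median -3.83), a difference of -0.32 (SE 0.27, limma adjusted p = 0.55). The groups overlapped for both. Whether the Myh8 probe also reports the neighbouring fast chains was not tested.

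The slow-fibre genes were less often well above background and less uniform. Of 7, Myoz2 was not well above background on any array, and 6 were tested: Tnnc1 and Tnnt1 were well above background on all 13 arrays, Tnni1 on 10, Myl2 on 9, Myh7 on 7 and Myl3 on 6. None had an r with Ckm above 0.8 (median 0.62). The median r between pairs was 0.43 over the 15 pairs of slow genes, 0.87 over the 78 pairs of fast genes and 0.58 over the 78 pairs of a fast with a slow gene. Control 5 was highest for 5 of the 6, including the slow heavy chain Myh7 (-1.73, against -5.33 to -3.23 on the other arrays), and slow troponin I (Tnni1) was highest on control 2 (-1.86).

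The slow light chains were both highest on control 5 and parted on other arrays. Myl3, the slow essential light chain, stood out on control 5 (-0.54), control 1 (-1.31) and KI 2 (-2.04), with the other 10 arrays at or below -3.37. Myl2, the slow regulatory light chain, was highest on control 5 (-0.83) and control 7 (-1.62), and lay at -4.53 on control 1. Myh6, a heart heavy chain that is not on the muscle list, was also highest on control 5 (-0.83) and control 7 (-2.08). The cardiac hormones Nppa and Nppb were not well above background on any array.

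Tnnc1, the slow troponin C, moved only from -3.10 to -1.76 over the 13 arrays (r = 0.67 with Ckm). The fast Tnnc2 moved from 0.14 to 5.69 (r = 0.97), although 81.4% of the 59 aligned bases of their probes were identical. The slow-fibre level per array, built like the muscle level from the 6 tested slow genes, spanned 2.70 on the log2 scale, and the level of the 13 fast genes spanned 5.35. Control 5 was highest in both. KI 4 and KI 1 were lowest in the fast level at -2.83 and -1.84, while in the slow level they were at -0.32 and -0.54, close to KI 5 (-0.48), control 4 (-0.38) and KI 6 (-0.37). Of the 6 slow genes tested, only Tnnc1 and Tnnt1 were well above background on every array, so low values of the others are uncertain. Whether this narrowed the slow level was not tested.

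**Figure D3:**
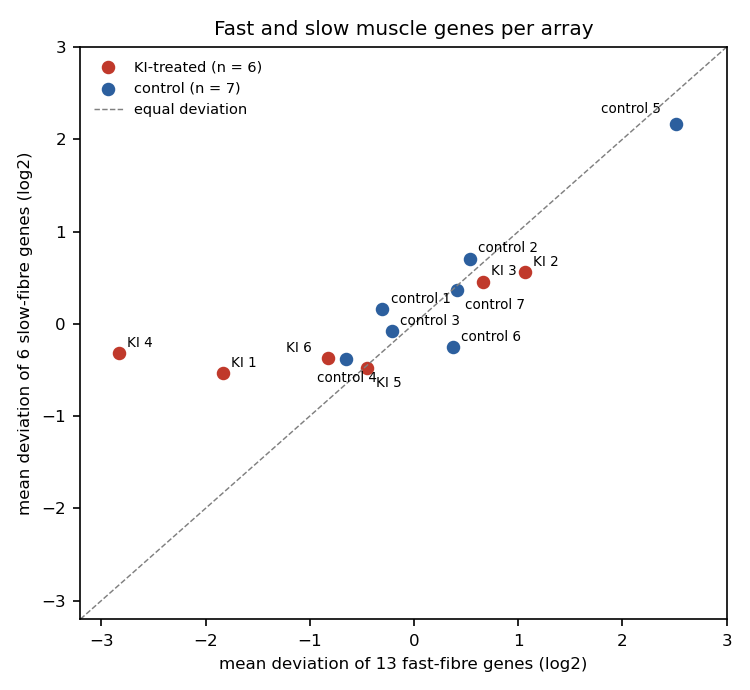
Mean log2 deviation of the 13 tested fast-fibre genes (horizontal axis) against that of the 6 tested slow-fibre genes (vertical axis), 1 point per array, red KI-treated and blue control, with a dashed line of equal deviation. Control 5 is far up on both axes at 2.51 and 2.17, and KI 4 and KI 1 lie left of the line at -2.83 and -1.84 on the fast axis with slow values of -0.32 and -0.54.

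Among the slow genes, Tnnt1, the slow troponin T, ranged from -2.03 to -1.19 (median -1.60) in KI-treated thyroids and from -2.08 to 0.17 (median -0.74) in controls. All 6 KI-treated arrays were below the control median, and the difference was -0.67 (SE 0.33, limma adjusted p = 0.401, exact permutation p = 0.0909). Tnni1 ranged from -3.59 to -2.79 (median -3.40) and from -4.18 to -1.86 (median -3.50), a difference of 0.02 (SE 0.34, limma adjusted p = 0.972). Tnni1 and Tnnt1 share the slow troponin complex, and their group values overlapped in both cases. Myl2 ranged from -5.74 to -2.55 (median -4.08) and from -5.33 to -0.83 (median -3.31), a difference of -1.04 (SE 0.72, limma adjusted p = 0.494). Myh7 ranged from -4.56 to -3.23 (median -4.23) and from -5.33 to -1.73 (median -4.30), a difference of -0.13 (SE 0.45, limma adjusted p = 0.886).

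Among the 7 tested sarcomere genes that fibre types share, 2 had an r with Ckm above 0.8. Acta1, the skeletal alpha-actin of the thin filament, was not one of them. It was at 2.83 on control 5 and between -1.61 and -0.22 on the other 12 arrays, so that KI 2, rich in the other members, lay only 0.02 from the Acta1 median. The KI-treated arrays lay between -1.61 and -0.71 (median -0.998) and the controls between -1.32 and 2.83 (median -0.81), a difference of -0.77 (SE 0.53, limma adjusted p = 0.486, exact permutation p = 0.182). Without control 5 the difference was -0.25. Its r with Ckm was 0.67 (rho = 0.51) and fell to 0.27 without control 5 and KI 4. In a family of 24 genes set against Acta1, which held heavy chains, other muscle genes, markers of other tissues and genes the study had named, 0 passed the adjusted permutation test by Pearson's r or by Spearman's rho.

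The Z-disc gene Myot followed Ckm closest of all members (r = 0.98), from -6.00 on KI 4 to 0.05 on control 5. Myot was well above background on 11 arrays, 4 of them KI-treated, so its lowest values are uncertain. The brightest probe of Ldb3, another Z-disc protein, ranged from -1.37 to 0.16 (r = 0.75). Tcap, which caps titin at the Z-disc, followed Ckm too (r = 0.86) and was highest on KI 2 (2.08). Desmin (Des, r = 0.40), an intermediate filament also found in smooth muscle, and Tpm2 (r = 0.14), a tropomyosin also found in smooth muscle, varied little. Other probes of 3 genes differed from the brightest: the second Ldb3 probe, well above background on 4 arrays, had an r of 0.88, a dimmer Tpm2 probe spanned -3.66 to 1.96 and followed Ckm (r = 0.93), and 3 dimmer tested probes of titin (Ttn) had r between 0.82 and 0.87, against 0.69 for the brightest. Mybpc1, Actn2 and Xirp2 were well above background on 4, 4 and 3 arrays and were not tested. Control 5 was the highest array for each of those 3.

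The coupling genes followed the block as the fast genes did. The calcium channel of the T-tubule Cacna1s had an r of 0.92 with Ckm, the release channel Ryr1 0.92 and its partner triadin (Trdn) 0.88. They were well above background on 11, 7 and 13 arrays. Among the other energy genes, 3 of 6 had an r with Ckm above 0.8: phosphoglycerate mutase Pgam2 (0.94), beta-enolase Eno3 (0.93) and AMP deaminase Ampd1 (0.92). Glycogen phosphorylase Pygm (0.70) and the oxidative genes followed it less. Mitochondrial creatine kinase Ckmt2 (r = 0.73) and myoglobin (Mb, r = 0.69), which stores oxygen, were highest on KI 2 (2.25 and 4.33) and not on control 5 (1.85 and 3.68). On KI 1, Mb was at 2.67 and Ckmt2 at -0.94, close to their medians of 2.63 and -0.87, while Ckm was at -1.20 with a median of 1.75. KI 1 thus stood near the median for Myh1, Mb and Ckmt2 and far below it for Ckm and Myh4.

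KI-treated thyroids were then compared with controls for the whole list. None of the 38 tested members passed an adjusted p of 0.05 in limma, as was the case for 0.0% of the 25717 probes tested. At an unadjusted p under 0.05, 4 members were lower in KI-treated thyroids (10.5%), beside 7.01% of all probes lower, and 0 members were higher, beside 5.71% of all probes. The difference was below 0 for 32 of the 38 members, and for 60.7% of all probes. The median difference was -0.74 for the members and -0.08 for all probes. The groups overlapped for every member, while 0.587% of all probes had groups that did not overlap. The members share their arrays and rise and fall together, so these counts do not represent independent genes.

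The 4 members were the fast calcium buffer Pvalb, Actn3, Ampd1 and Cacna1s, and Mylpf came next. Pvalb, parvalbumin, ranged from -2.65 to 2.23 (median -0.03) in KI-treated thyroids and from -0.61 to 4.26 (median 2.42) in controls, and all 6 KI-treated arrays were below the control median. Its difference was -2.20 (SE 0.83, limma unadjusted p = 0.0181, adjusted p = 0.363, exact permutation p = 0.0402). Control 1, at -0.61, control 3, at 1.64, and control 4, at 1.67, lay within the KI-treated range. Actn3, which links thin filaments at the Z-disc of fast fibres, ranged from -1.40 to 2.89 (median 1.30) and from 1.54 to 4.64 (median 2.62), a difference of -1.73 (SE 0.66, limma unadjusted p = 0.020, adjusted p = 0.366, exact permutation p = 0.0414). KI 3, KI 2 and KI 5, at 2.89, 2.39 and 1.74, were inside the control range. KI 6, at 0.86, was below it, and KI 4 and KI 1, at -1.40 and -0.24, were far below it.

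Ampd1 ranged from -3.11 to -0.02 (median -1.47) in KI-treated thyroids and from -1.26 to 1.85 (median -0.12) in controls, a difference of -1.34 (SE 0.55, limma unadjusted p = 0.0285, adjusted p = 0.376, exact permutation p = 0.0548). Cacna1s ranged from -4.76 to -1.36 (median -3.66) and from -3.36 to 0.01 (median -1.79), a difference of -1.33 (SE 0.62, limma unadjusted p = 0.0492, adjusted p = 0.391, exact permutation p = 0.088). Only 4 KI-treated arrays, against 7 controls, showed Cacna1s well above background. Its difference was -0.70 with normexp and the 75th percentile and -0.79 in the deposited log2 values. In neither of these settings, nor with quantile normalization, did it pass an unadjusted limma p of 0.05. Mylpf ranged from -0.35 to 4.13 (median 2.00) and from 2.44 to 5.43 (median 3.68), a difference of -1.41 (SE 0.67, limma adjusted p = 0.397, exact permutation p = 0.0915). In these 3 genes too KI 4 and KI 1 were the lowest arrays and control 5 the highest. Ckm ranged from -1.87 to 2.75 (median 1.15) and from 1.14 to 4.28 (median 2.02), a difference of -1.43 (SE 0.71, limma adjusted p = 0.405, exact permutation p = 0.127).

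**Figure D4:**
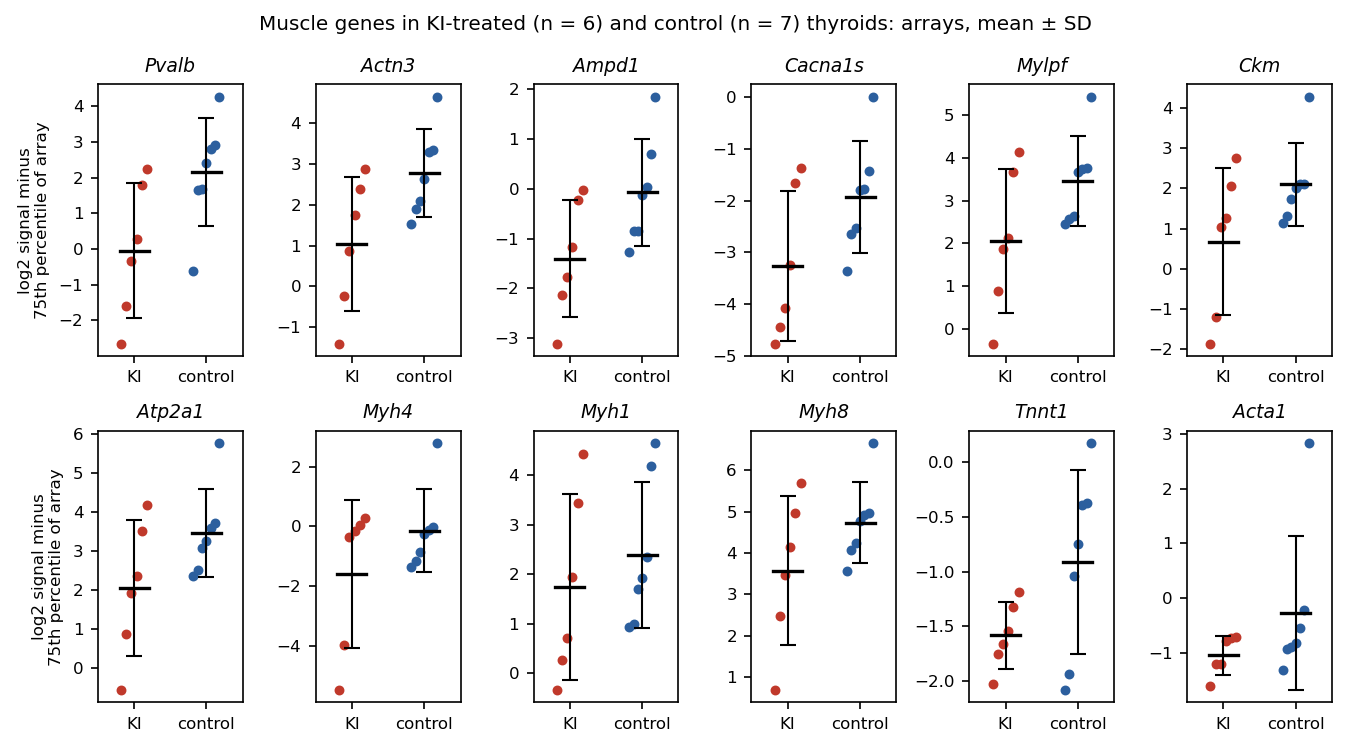
Levels of 12 muscle genes (vertical axes, log2 signal minus the 75th percentile of the array) in KI-treated (red, n = 6) and control (blue, n = 7) thyroids, with 1 point per array, sorted within a group, and black lines for the mean ± SD. The groups overlap in every panel, the lowest points of the fast genes are KI-treated arrays and the highest point of each panel is control 5.

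The group difference was also described with 3 arrays left out. Without control 5, KI 1 and KI 4, the highest and the lowest arrays in Ckm, 14 of the 38 members were below 0. The median difference was then 0.09 for the members and -0.06 for all probes. These arrays were chosen on Ckm itself, a control at the top and KI-treated arrays at the bottom. The differences of genes that follow Ckm therefore rise by this choice. The values describe the other 10 arrays and carry no test. The difference of Ckm was then 0.04, that of Tnni2 0.04, of Myh8 0.15 and of Myh4 0.59, and the differences of Pvalb (-0.81), Actn3 (-0.49), Ampd1 (-0.41) and Tnnt1 (-0.53) were still below 0. On the slides that held both groups, KI-treated minus control was below 0 on 3 of 5 for Ckm, Pvalb, Actn3 and Ampd1, and it ran for Ckm from -4.66 to 1.61. In the 3 scan sessions it was below 0 in 3 of 3 for Pvalb and Actn3 and in 2 of 3 for Ckm. With slide as a fixed block 0 members passed an unadjusted p of 0.05, beside 8.4% of all probes lower. With slide as a random block 3 did (Actn3, Pvalb and Ampd1, all lower), beside 9.19% of all probes lower.

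**Figure D5:**
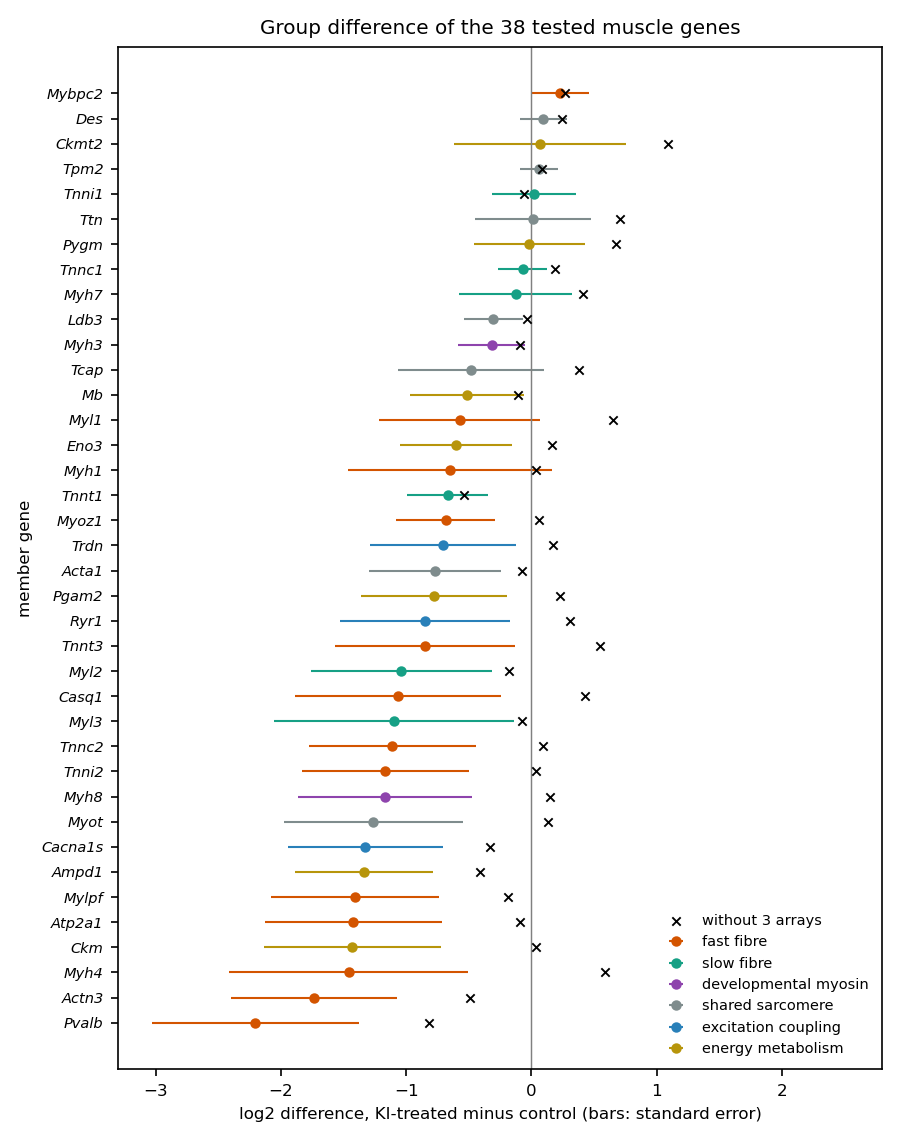
Difference between group means, KI-treated minus control, on the log2 scale (horizontal axis) for each of the 38 tested members (vertical axis, coloured by role), with bars for the limma standard error and crosses for the difference without control 5, KI 1 and KI 4. The coloured points run from -2.20 for Pvalb to 0.23 for Mybpc2, and the crosses run from -0.81 for Pvalb to 1.09 for Ckmt2.

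By role, the median difference was -1.11 for the 13 tested fast-fibre genes and -0.40 for the 6 slow genes. Below 0 were 12 of the 13 and 5 of the 6, beside 60.7% of all probes. The median difference was -0.85 for the 3 coupling genes, -0.60 for the 7 energy genes and -0.30 for the 7 tested shared sarcomere genes. The muscle level averaged -0.39 ± 1.08 (SD, n = 6) in KI-treated and 0.37 ± 0.89 (SD, n = 7) in control thyroids. The spread within a group was thus larger than the difference between the groups.

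Genes of muscle outside the list were followed next. Of 68 further muscle genes, 61 had a probe and 37 were tested, with a median r of 0.52 with Ckm and a median difference of -0.29. The difference was below 0 for 30 of the 37, beside 60.7% of all probes. At an unadjusted p under 0.05, 5 were lower (13.5%, beside 7.01% of all probes) and 0 higher (beside 5.71%). The 5 most variable were Csrp3 (SD 1.63), Art1 (1.54), Cav3 (1.50), Stac3 (1.33) and Cox6a2 (1.27). They were well above background on 8, 12, 7, 7 and 13 arrays. Csrp3, a stretch-linked protein of slow and heart muscle, was highest on KI 2 (-0.27), KI 3 (-0.28) and control 5 (-0.82), with the other 10 arrays at or below -2.53. The smallest p values belonged to Jsrp1 (difference -0.62, SE 0.19, limma adjusted p = 0.353), Asb2 (-0.64, SE 0.24, adjusted p = 0.363 in limma) and Stac3 (-1.47, SE 0.56, adjusted p = 0.364 in limma), of which Jsrp1 and Stac3 act in excitation-contraction coupling. Jsrp1 followed Ckm only loosely (r = 0.49).

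Genes of the nerve-muscle junction and of muscle precursors were mostly not detected. Of 13, 11 had a probe and 3 were tested, and Musk, Pax7 and the receptor subunits Chrnb1, Chrnd, Chrne and Chrng were not well above background on any array. The subunit Chrna1 stayed between 0.28 and 1.31 (r = 0.15 with Ckm), with a difference of -0.42 (SE 0.16, limma adjusted p = 0.364). Myod1, the myogenic factor, was well above background only on control 5 (-2.17) and KI 2 (-3.37), the arrays with the highest muscle level.

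When Ckm took the place of Acta1 in the family of 24, an alternative chosen after seeing the data, 6 genes passed the adjusted permutation test by Pearson's r, all with positive r: Myh4, Myh1, Myl2, Myh8, Actc1 and Bcl2. By Spearman's rho Myh1 and Myh8 passed, and without KI 4 and KI 1, the arrays farthest from the Ckm median, Myh1, Myh2 and Myh8 passed. The relation with Myh4 (r = 0.94, adjusted permutation p = 0.00156; rho = 0.70, adjusted permutation p = 0.0606) fell to r = 0.80 without KI 4 and KI 1 (adjusted permutation p = 0.0816) and to 0.27 when control 5 was left out too. Bcl2, a brake on apoptosis, had an r of 0.77 (adjusted permutation p = 0.0162; rho = 0.61, adjusted permutation p = 0.119), which was 0.37 without KI 4 and KI 1 (adjusted permutation p = 0.478), so that it rests on those arrays. With group means subtracted, Myh4, Myh8 and Bcl2 passed (adjusted permutation p = 0.00024, 0.00024 and 0.0309). Tg (r = 0.25) and Pax8 (r = 0.31), of the thyroid follicle, did not pass.

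Markers of other tissues near the gland did not run with Ckm as whole lists. The median r with Ckm was 0.25 for 10 thyroid follicle genes, 0.31 for 4 cartilage genes, 0.09 for 8 smooth muscle genes, 0.09 for 6 nerve genes, 0.02 for 6 adipocyte genes, 0.11 for 3 parathyroid genes, -0.0012 for 3 blood genes, -0.13 for 5 genes of C cells, -0.016 for 5 genes of squamous epithelium and -0.46 for 3 lymphocyte genes. The summed level of the lymphocyte genes was highest on KI 1 (3.99), one of the arrays lowest in muscle, against at most 1.40 in controls. The summed cartilage level ran from -1.48 to -0.997 in KI-treated and from -1.14 to -0.50 in control thyroids, and its markers Acan and Matn3 were not well above background on any array. The part of these tissues in the muscle values was not tested.

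The genes most like Ckm across the 13 arrays were mostly genes of muscle. Of the 20 genes nearest to it in r among 20672, 15 were members, and 16 of the 28 genes with r above 0.9 were members. The 10 non-members nearest to it had r between 0.90 and 0.95, and between 0.86 and 0.93 without control 5. They held 5 named genes, Art1, Klhl31, Cav3, Cox6a2 and Dusp26, and 5 probes with only an identifier. For Acta1 the 10 nearest non-members had r between 0.84 and 0.91 with it, and between 0.19 and 0.74 without control 5. Their 4 named genes were Rapgef6, Cyp21a1, Slc35b3 and Tssk6, and 1 member was among the 20 genes nearest to Acta1.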

How the data were processed

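Thyroid RNA of 13 rats was hybridised to one-colour Agilent arrays of 62976 features. For each array the authors deposited the scanner output, where the intensity of a spot is given by Agilent Feature Extraction (version 10.7.3.1) as a processed, background-subtracted signal with no normalization between arrays, so values of dim probes are uncertain. A further deposited table holds log2 values made from these scans, whose normalization is not given in the sources used here and which served as an alternative only. Columns belonging to other samples numbered 0.

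Groups and replicate numbers came from the sample labels. From the processed signal, log2 values minus the 75th percentile of each array were computed. Control and outlier spots were left out, the spots of a probe were averaged (45598 probes), and 25717 probes, those that 6 or more arrays showed well above background, were tested with limma 3.58.1 (R 4.3.3, lmFit and eBayes, no covariates, Benjamini-Hochberg adjustment, threshold 0.05). The brightest probe represented a gene. The number of arrays limits the precision. Single genes were also compared by an exact permutation test over 1716 splits, and correlations were tested with 100000 permutations (smallest possible p 1e-05) in Python 3.11.15 with numpy 2.4.6 and scipy 1.17.1. The limma fit and the permutation functions were tested on simulated data.

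The members and lists were chosen with earlier results of these data known. Named were Acta1, Ckm, the heavy chains Myh1, Myh2, Myh3, Myh4, Myh7 and Myh8, fast and slow troponins I and T, Myl1, Myl2, Pvalb and Atp2a1, the 5 members with the smallest p and the 5 with the largest difference, the family set against Acta1, the 10 genes most like it, and from the further muscle genes the 5 most variable and the 3 with the smallest p. Myh6, Myod1 and the other members described were named after their values were seen. Alternatives were quantile normalization, normexp background correction (offset 50), the deposited log2 values, other filters, slide, scan date and replicate number as blocks, array weights, trended and robust variances, the methods' t-test, the mean over probes, and leaving out each array. Added after seeing the data were Ckm in place of Acta1, the myosin pairs and the fit without 3 arrays. Gene windows came from the RefSeq tables (GRCr8), in which 38 of the 44 names matched a window. No genome was used, so probe positions are not given.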

Additional observations from a re-analysis of the deposited data

Results flagged for a closer look

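Within a group, 1 array can stand far from the others: the gap to its nearest neighbour was set against the range of the group for 19 named members in each group (38 comparisons), of which chance alone marks about 1 in 20, or 1.9. The limit was passed 5 times, each time by control 5 among the 7 controls. The gap was 0.736 of the range for Acta1 (2.83 on control 5 against -1.32 to -0.22), 0.69 for Ckm (4.28 against 1.14 to 2.11), 0.674 for Myh4 (2.78 against -1.37 to -0.02), 0.635 for Myl1 (2.54 against -1.66 to -0.13) and 0.597 for Atp2a1 (5.76 against 2.35 to 3.72). These 5 genes share the array, so they are not separate findings. No KI-treated array passed the limit.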

How the results depend on the processing

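No member passed an adjusted p of 0.05 under any alternative. Over all probes 50 passed with array weights, and 0 to 1 when single arrays were left out. The number of members past an unadjusted p of 0.05 was 4 as reported, all lower in KI-treated thyroids, beside 7.01% of all probes lower. It was 7 with normexp and the 75th percentile (beside 13.3% of all probes lower). It was 0 with slide as a fixed block (8.4%) and 3 with slide as a random block (9.19%). It was 2 with scan date as a block (10.9%), 16 with array weights (10.3%) and 2 by the methods' t-test (7.48%), all lower. Without control 5, KI 1 and KI 4 it was 1 (Pygm, higher in KI-treated, beside 755 probes higher). Leaving out single arrays gave 1 to 14, all lower: 14 without KI 2 (beside 6.7% of all probes lower), 9 without KI 3 (6.42%) and 7 without control 1 (9.76%). It gave 2 without KI 1 (4.87%), KI 6 (5.78%), control 5 (7.14%) or control 7 (5.94%), and 1 without KI 4 (5.83%). The median difference of the members then ran from -1.08 to -0.42. Probes past the unadjusted threshold numbered 5120 with scan date as a block, 1832 without the 3 arrays and 2364 to 4598 without single arrays. The split of these probes moved with the scaling: 1469 were higher and 1802 lower as reported, 1825 and 1455 after quantile normalization, 1905 and 1422 with normexp and quantile normalization, 1886 and 1359 in the deposited log2 values, 1166 and 3427 with normexp and the 75th percentile, and 1351 and 2663 with no filter.

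Without control 5, KI 1 and KI 4 the direction turned for Ckm (0.037), Myh1 (0.040), Myh4 (0.59), Myh7 (0.41), Myh8 (0.15), Tnni1 (-0.061), Tnni2 (0.038), Tnnt3 (0.54) and Myl1 (0.65). Those arrays were chosen on Ckm, so a rise in the genes that follow it was fixed by the choice and tests nothing. Myh7 was also above 0 with slide (0.13, but -0.044 as a random block) and scan date (0.10) as a fixed block and ran from -0.36 to 0.24 without single arrays. Tnni1 was below 0 with normexp (-0.21 with the 75th percentile, -0.028 with quantile normalization), with slide as a fixed block (-0.034, but 0.0053 as a random block) and with array weights (-0.24), and ran from -0.13 to 0.26 without single arrays. The muscle level spanned 5.35 over fast and 2.70 over slow genes. With Ckm in place of Acta1, 6 correlations passed. Without control 5 and KI 4, r with Acta1 turned to -0.27 for Myh7, -0.020 for Eef1a2 (-0.032 with group means subtracted) and 0.058 for Tg (rho 0.082). The cause of these shifts was not tested.

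Replicate numbers did not pair the samples: deviations of same-numbered arrays correlated between -0.109 and 0.0714, with 0 of 6 pairs over 0.1, and 0 arrays correlated best with their own number. With the replicate number as a block, 0 probes passed the adjusted threshold, 2356 probes and 6 members passed the unadjusted one, and Tnni1 was at -0.015. Of the 6 slow genes tested, 4 were not well above background on every array, so their lowest values are uncertain.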

Other observations

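Some muscle genes outside the list stood far higher on 1 array or a few than on the others. Myh13, the heavy chain of extraocular and laryngeal muscle, lies beyond Myh8 in the same cluster and was at 1.62 on KI 2, while the other 12 arrays were between -5.77 and -4.05 and, apart from KI 3, not well above background. KI 2 was also the highest array for Mb, Ckmt2, Tcap and Csrp3. Ankrd1, a stress-linked protein of muscle, was at 0.10 on KI 1 and between -6.30 and -4.65 on the other 12 arrays. Of those 12, only KI 4 (-4.84) was well above background. Sarcolipin (Sln), an inhibitor of the calcium pump, was well above background on control 5 (0.17), KI 2 (-1.46), control 1 (-1.64) and KI 6 (-2.88), and between -6.95 and -4.22 elsewhere. H19, a non-coding RNA expressed in muscle, was well above background on all 13 arrays and ranged from -0.32 on KI 4 to 2.79 on control 5. These genes were picked after their values were seen, each by its brightest probe, and no test was made of them. Myh13 and Sln had 2 probes each, and the dimmer ones were not examined.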
